A study of Mus musculus with 10 samples.

Results

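Complement is a protein cascade of the innate immune system, and stromal cells of the bone make several of its components. The genes C1ra, C1s1, C4b, C3, Cfb and C7 were chosen by name, and all 6 were found among the 15078 genes of the expression table. Their RNA was sequenced in 10 libraries of CD51+CD200+ cells sorted from mouse bones, where CD51 and CD200 are surface proteins used to enrich skeletal stem cells. Graft BM-MSCs (bone marrow mesenchymal stem cells, n = 4) were CD51+CD200+Tomato+ cells from the marrow of femurs that had been placed under the skin of recipient mice 5 months earlier. The genotype of these samples is transgenic (POSTN-CRE), in which tamoxifen, given after transplantation, permanently switches on the red protein Tomato in cells that use the periostin gene Postn at that time. The marker therefore reports descent from Postn-using cells and not their present identity. BM-MSCs (n = 3) came from the marrow, and P-SSCs (periosteal skeletal stem cells, n = 3) from the outer bone membrane, the periosteum, of untreated wild-type mice. BM-MSC 2+4 and P-SSC 2+5 each held the RNA of a pair of mice and were used as 1 library. The ages of the mice are not given in the labels. The graft and steady-state libraries differ together in genotype, treatment, surgery and the 5 months after transplantation, which cannot be told apart. The steady-state libraries also came from another series, a further difference that cannot be told apart from these.

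The comparison asked how far the complement genes of Tomato+ marrow stromal cells, which the study uses to trace graft periosteum, resemble those of steady-state marrow and periosteum. The classical pathway starts when C1q binds a surface and its proteases C1r and C1s cut C4 and C2 to form an enzyme that cleaves C3. The lectin pathway reaches the same enzyme through mannose-binding proteins, and the alternative pathway uses factor B (Cfb) to cleave more C3. Cleaved C3 tags targets for phagocytes, and C5 to C9, C7 among them, assemble the membrane attack complex. The liver is the main source of plasma complement, while fibroblasts and other stromal cells make components locally.

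C3 and C7 separated the periosteal from the marrow libraries. C3 was about 10-fold lower in graft BM-MSCs than in P-SSCs and did not pass the test against BM-MSCs. C7 had at least 8154 normalized counts in every P-SSC library and no read in any graft library. C1s1, a classical pathway protease, was higher in P-SSCs than in BM-MSCs, and it was called higher in graft BM-MSCs than in BM-MSCs, a call that was lost when single libraries were left out. C1ra, C4b and Cfb passed the test in none of the 3 comparisons. In bulk samples such as these, fewer cells of a type and less RNA per cell cannot be told apart.

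Reads assigned to genes numbered 15415421 to 25223295 per library, so that 3 reads, the floor used here, were 0.119 to 0.195 ppm of a library. Graft libraries held fewer genes, with 9308 to 11674 detected against 12217 to 13341 in the steady-state libraries. In 5 libraries, the 4 graft libraries and P-SSC 4, genes with over 65% GC stood above genes of 50 to 60% GC by 1.52 to 2.80 on the log2 scale, relative to the mean library, while in the other 5 the same difference was -1.81 to -1.51. Whether these 5 libraries were prepared together is not given in the sources used here, and for graft BM-MSCs against BM-MSCs this split and the groups cannot be told apart. The 5 marrow stromal markers used to check the cells (Cxcl12, Lepr, Kitl, Adipoq and Vcam1) summed to 710140 to 845455 normalized counts in graft BM-MSCs, 866473 to 1183441 in BM-MSCs and 5345 to 11265 in P-SSCs. The 5 periosteal markers (Postn, Fmod, Pi16, Cd34 and Fn1) summed to 319501 to 569796 in P-SSCs, 8053 to 12316 in BM-MSCs and 1278 to 2994 in graft BM-MSCs. In every library the list of the tissue it was sorted from had the higher sum. Both lists were chosen with earlier results of these data known, so this is not an independent check. Postn itself was at 0 in 3 of the 4 graft libraries and at 235 in graft BM-MSC 4. It was at 5041, 4579 and 3757 in BM-MSCs 1, 2+4 and 3, so steady-state marrow cells held its RNA too. In P-SSCs 1, 2+5 and 4 it was at 21259, 24829 and 16558, above every BM-MSC library. P-SSCs against BM-MSCs, at a log2 change of 2.22, did not pass (limma, adjusted p = 0.687). That fit used 1 estimate of the spread over all 10 libraries, which included the graft values of 0 and 235. The study itself reports more Postn expression in P-SSCs than in BM-MSCs.

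The promoters of the 3 genes that differed between groups are shown because C3, C7 and C1s1 were all higher in P-SSCs than in BM-MSCs. Each run is the 250 bases before the RefSeq start on GRCm38.p6, written 5′ to 3′ on the gene's strand, which is the minus strand for all 3. Capitals mark matches to 1 of 6 short motifs searched on both strands.
C3 (chr17:57228137-57228386): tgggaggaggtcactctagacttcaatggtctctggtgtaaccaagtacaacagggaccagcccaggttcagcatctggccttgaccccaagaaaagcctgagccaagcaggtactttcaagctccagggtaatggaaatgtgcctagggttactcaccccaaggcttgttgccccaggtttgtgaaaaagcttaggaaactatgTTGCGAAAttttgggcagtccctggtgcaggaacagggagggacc
C7 (chr15:5063774-5064023): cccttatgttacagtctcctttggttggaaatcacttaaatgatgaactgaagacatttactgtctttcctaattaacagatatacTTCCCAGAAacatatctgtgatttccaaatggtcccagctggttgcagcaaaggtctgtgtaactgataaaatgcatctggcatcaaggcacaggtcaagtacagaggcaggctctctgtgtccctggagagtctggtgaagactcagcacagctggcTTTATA
C1s1 (chr6:124542360-124542609): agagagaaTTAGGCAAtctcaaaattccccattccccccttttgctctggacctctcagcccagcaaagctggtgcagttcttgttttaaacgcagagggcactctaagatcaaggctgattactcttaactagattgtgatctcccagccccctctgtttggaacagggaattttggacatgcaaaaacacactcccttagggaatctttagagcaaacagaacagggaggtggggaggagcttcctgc
In C3 the capitals are a match to the C/EBP motif (TTGCNNAA) that begins 45 bases before the start, and in C1s1 a match to the same motif on the opposite strand begins 242 bases before the start. In C7 the first capitals match the STAT motif (TTCNNNGAA) at 164 bases before the start and the last match a TATA box (TATAAA) on the opposite strand. Of 32851 windows of the same length in the table, 9.56% held the C/EBP motif, 7.02% the STAT motif and 12.4% the TATA box. The NF-kB, IRF and AP-1 (TGANTCA) motifs were held by 4.65%, 2.98% and 6.75% of all windows and had no match in these 3. The window of C1ra held none of the 6 motifs. These matches are letters in a window and were not tested as binding sites.

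C1ra (ENSMUSG00000055172, chr6:124512405-124523443 on the plus strand of GRCm38) encodes C1r, the protease that activates C1s. Its normalized read counts were 11537, 16554, 14125 and 10265 in graft BM-MSCs 1 to 4, 19087, 20901 and 13512 in BM-MSCs 1, 2+4 and 3, and 25287, 22208 and 13320 in P-SSCs 1, 2+5 and 4. The lowest BM-MSC and P-SSC libraries lay inside the graft range, so all 3 groups overlapped. The log2 change of graft BM-MSCs was -0.60 ± 0.26 (SE) against P-SSCs (limma, Benjamini-Hochberg adjusted p = 0.144) and -0.44 ± 0.26 against BM-MSCs (adjusted p = 0.322). P-SSCs differed from BM-MSCs by 0.16 ± 0.28 on the log2 scale (limma, adjusted p = 0.955). Without P-SSC 4 the difference between graft BM-MSCs and P-SSCs passed the test (limma, adjusted p = 0.0310, range over all alternatives 0.0310 to 0.976), and with a correction for GC content it was 0.02.

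C1s1 (ENSMUSG00000038521, chr6:124530345-124542359, minus strand) encodes C1s, the protease that cuts C4 and C2. It lies 6.9 kb from C1ra with no protein-coding gene between them. It had 11976, 10738, 11441 and 10728 normalized counts in graft BM-MSCs 1 to 4, 7384, 5342 and 4078 in BM-MSCs 1, 2+4 and 3, and 19710, 15508 and 10774 in P-SSCs 1, 2+5 and 4. The BM-MSC libraries were the 3 lowest of the 10, and the 4 graft libraries stood together above them, overlapping with P-SSC 4. P-SSCs were 2.74-fold higher than BM-MSCs in the ratio of means, with a log2 change of 1.45 ± 0.26 (SE, limma adjusted p = 0.00492). Among the 5 libraries in which GC-rich genes stood low the same change was 1.68 ± 0.30 (limma, adjusted p = 0.0257).

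Graft BM-MSCs were 2.00-fold higher than BM-MSCs for C1s1, with a log2 change of 1.04 ± 0.25 (SE, limma adjusted p = 0.0307). This call did not hold when any 1 graft library was left out (limma, adjusted p 0.0508 to 0.0640), without BM-MSC 2+4 (0.108), without BM-MSC 3 (0.128) or with edgeR (0.0741), and its adjusted p ranged from 0.00937 to 0.269 over all alternatives. The direction was the same under every alternative tried. Against P-SSCs the log2 change of graft BM-MSCs was -0.41 ± 0.25 (SE, limma adjusted p = 0.279), and it was 0.12 with quantile normalization and 0.16 with the GC correction.

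The ratio of C1ra to C1s1 counts differed between the groups in a way that the single genes show less clearly, and it was computed after their values had been seen, so it carries no test. It was 0.963, 1.54, 1.23 and 0.957 in graft BM-MSCs 1 to 4. In BM-MSCs 1, 2+4 and 3 it was 2.59, 3.91 and 3.31. In P-SSCs 1, 2+5 and 4 it was 1.28, 1.43 and 1.24. All 3 BM-MSC libraries lay above the other 7, and the graft libraries overlapped with P-SSCs. Counts of C1ra and C1s1 may include reads of the near-identical copies C1rb and C1s2, and those of C4b reads of C4a, none of which was analysed here.

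C4b (ENSMUSG00000073418, chr17:34728380-34743882, minus strand) encodes C4, which C1s cuts to start the C3 convertase of the classical and lectin pathways. Its normalized counts were 18382, 24580, 47756 and 23298 in graft BM-MSCs 1 to 4, 36474, 52756 and 37836 in BM-MSCs 1, 2+4 and 3, and 46306, 26674 and 17288 in P-SSCs 1, 2+5 and 4. Libraries within a group spread widely, graft BM-MSC 3 and P-SSC 1 both reached the BM-MSC range, and all groups overlapped. The log2 change of graft BM-MSCs was -0.06 ± 0.37 (SE) against P-SSCs (limma, adjusted p = 0.932) and -0.65 ± 0.37 against BM-MSCs (adjusted p = 0.302), and P-SSCs stood at -0.59 ± 0.40 against BM-MSCs (adjusted p = 0.576). The sign of all 3 values changed under at least 1 alternative.

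C3 (ENSMUSG00000024164, chr17:57203970-57228136, minus strand) encodes the component on which all pathways converge. It had 136121, 149549 and 67215 normalized counts in P-SSCs 1, 2+5 and 4, against 9613, 17512 and 11631 in BM-MSCs 1, 2+4 and 3 and 11184, 11054, 10871 and 12373 in graft BM-MSCs 1 to 4. Every P-SSC library was above every marrow library, and the graft values lay inside the BM-MSC range. P-SSC 4 had the lowest periosteal value and was still higher than the highest marrow library.

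Mean C3 was 10.3-fold lower in graft BM-MSCs (11370 ± 681, SD, n = 4) than in P-SSCs (117629 ± 44173, SD, n = 3), with a log2 change of -3.29 ± 0.29 (SE, limma adjusted p = 4.72e-05). The median log2 change of all genes in this comparison was -0.47, and relative to it C3 stood at -2.81. P-SSCs were 9.11-fold higher than BM-MSCs (12919 ± 4104, SD, n = 3), with a log2 change of 3.15 ± 0.31 (SE, limma adjusted p = 0.000127). Within the 5 libraries in which GC-rich genes stood low this change was 3.51 ± 0.32 (limma, adjusted p = 0.00443). Graft BM-MSCs differed from BM-MSCs by -0.14 ± 0.29 (SE, limma adjusted p = 0.791), a value whose sign changed under several alternatives.

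**Figure D1:**
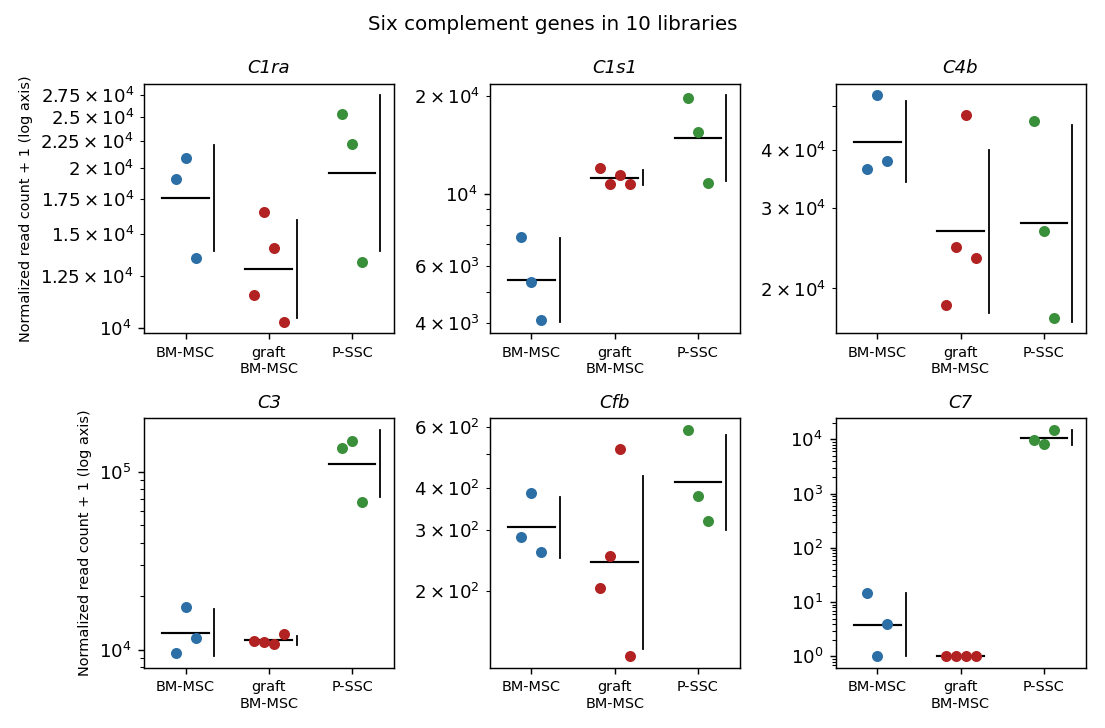
Normalized read count + 1 of each gene (vertical log axis) in every library of BM-MSCs (blue), graft BM-MSCs (red) and P-SSCs (green), with points for libraries, a horizontal line for the geometric mean and a vertical bar for ± 1 SD on the log2 scale. For C3 all P-SSC points (67215 to 149549) lie above all marrow points (9613 to 17512), for C7 all 4 graft points lie at 0 reads, and for C1ra, C4b and Cfb the groups overlap.

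Cfb (ENSMUSG00000090231, chr17:34856374-34862518, minus strand) encodes factor B, the protease subunit of the alternative C3 convertase. It was the member with the lowest level in P-SSCs, with 203, 252, 517 and 128 normalized counts in graft BM-MSCs 1 to 4, 286, 385 and 258 in BM-MSCs 1, 2+4 and 3, and 589, 377 and 318 in P-SSCs 1, 2+5 and 4. Graft BM-MSC 3 was above all BM-MSC libraries and graft BM-MSC 4 below all other libraries, and the groups overlapped. None of the comparisons passed the test, with graft log2 changes of -0.77 ± 0.55 (SE, limma adjusted p = 0.361) from P-SSCs and -0.34 ± 0.55 (0.725) from BM-MSCs, and a log2 change of 0.44 ± 0.59 (0.903) for P-SSCs relative to BM-MSCs. The ratio of C3 to Cfb counts, computed after their values had been seen and not tested, was 211 to 397 in P-SSCs, 33.6 to 45.5 in BM-MSCs and 21 to 96.9 in graft BM-MSCs.

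C7 (ENSMUSG00000079105, chr15:4988762-5063740, minus strand) encodes the component that anchors the forming attack complex in a membrane. It had 9830, 8154 and 15061 normalized counts in P-SSCs 1, 2+5 and 4. BM-MSCs 1, 2+4 and 3 had 13, 0 and 3 reads, and none of the 4 graft libraries had a read. P-SSCs and marrow cells were separated by more than 2 orders of magnitude in every pair of libraries, and P-SSC 4, which shared the high GC-rich signal of the graft libraries, had the highest value of all.

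The graft level of C7 was at least 4480-fold lower than that of P-SSCs when the graft mean was set to the floor of 3 reads per library. Without P-SSC 4 this bound was 3657-fold. The floor covers counting error only. Genes at 0 made up 22.6 to 38.3% of the table in graft libraries, 11.5 to 15.9% in BM-MSCs and 13.3 to 19.0% in P-SSCs. The fitted log2 change was -13.38 ± 1.18 (SE, limma adjusted p = 4.97e-05), or -12.90 relative to the median of all genes. With no graft read, its size depends on the 1 added to each value before the log. It was -16.70 with 0.1 added and -11.06 with 5 added, and the SE does not cover this. P-SSCs were above BM-MSCs by 11.43 ± 1.26 (SE, limma adjusted p = 0.000259) and, among the libraries in which GC-rich genes stood low, by 11.18 ± 1.24 (limma, adjusted p = 0.00688). The fitted value against BM-MSCs rests on few reads, and it was 12.39 without BM-MSC 1 and 10.45 without BM-MSC 2+4 (limma, adjusted p 0.000885 and 0.00151, range over all alternatives 1.12e-32 to 0.134). The absence of C7 reads in the graft against 16 reads in all BM-MSC libraries did not pass the limma test (log2 change -1.95 ± 1.18, SE, adjusted p = 0.326) but passed with DESeq2 (adjusted p = 0.00145, range over all alternatives 0.00145 to 0.898). Both marrow groups were at or near the floor of the measurement.

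**Figure D2:**
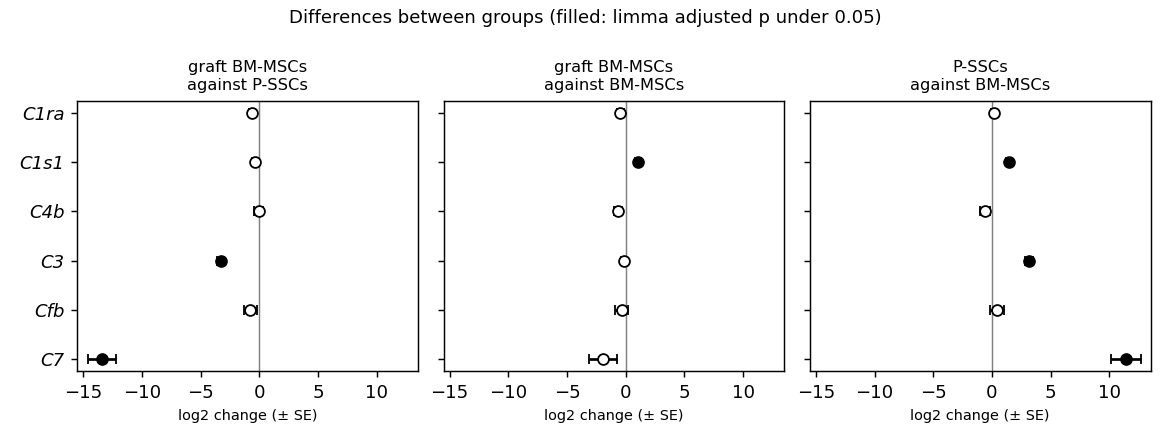
Fitted log2 change of each gene (horizontal axis, with bars for ± 1 SE) for the graft relative to P-SSCs, the graft relative to BM-MSCs, and P-SSCs relative to BM-MSCs, with filled points for a limma adjusted p under 0.05. C3 (-3.29) and C7 (-13.38) are filled in the first panel, C1s1 (1.04) alone in the second, and C1s1 (1.45), C3 (3.15) and C7 (11.43) in the third. The place of C7 in the first panel depends on the value added before the log.

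Counted over the 6 genes, graft BM-MSCs against P-SSCs gave 2 calls, both lower and both without overlap, where 12% of the 13644 genes tested were called lower (limma, adjusted p under 0.05) and 18.5% were lower without overlap. Graft BM-MSCs against BM-MSCs gave 1 call, higher and without overlap, where 2.61% of all genes were called higher and 10.3% were higher without overlap. P-SSCs against BM-MSCs gave 3 calls, all higher and without overlap, where 4.57% of all genes were called higher and 15.1% were higher without overlap. The 3 comparisons share groups and are not independent. The median log2 change of the 6 genes was -0.69 in the first comparison beside -0.47 for all genes, -0.39 beside -0.53 in the second, and 0.94 beside 0.00 in the third.

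The zero point of the graft comparisons depended on the scaling. With quantile normalization the median change of all genes was -0.02 against P-SSCs and -0.17 against BM-MSCs, and with the GC correction 0.03 and -0.02. The split of calls over all genes against P-SSCs moved from 830 higher and 1634 lower to 1247 and 1241 with quantile normalization and to 1243 and 1088 with the GC correction. Against BM-MSCs it moved from 356 higher and 690 lower to 588 and 435 and to 619 and 392. The lower C3 and C7 of graft BM-MSCs against P-SSCs were called under all of these scalings.

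The 6 genes together took 4354 ± 770 ppm of the reads (SD, n = 4) in the graft. The same share was 4134 ± 554 ppm (SD, n = 3) in BM-MSCs, and in P-SSCs it was 9182 ± 2390 ppm (SD, n = 3). The P-SSC libraries, at 6609 to 11332 ppm, were all above the marrow libraries, at 3641 to 5457 ppm. C3 made up 54.2 to 67.2% of this sum in P-SSCs, 13.2 to 18.1% in BM-MSCs and 12.8 to 21.8% in graft BM-MSCs. C4b made up 12 to 19.5% in P-SSCs, 50.1 to 56.2% in BM-MSCs and 34.5 to 56.4% in graft BM-MSCs. C4b was thus the leading member in all 7 marrow libraries and C3 in all 3 P-SSC libraries.

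**Figure D3:**
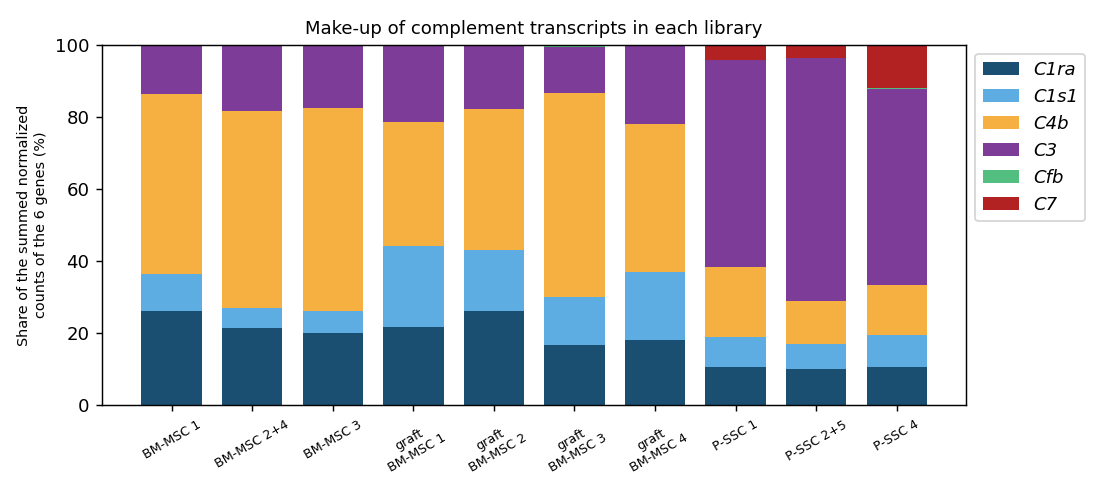
Share of each gene in the summed normalized counts of the 6 genes (vertical axis, %) in each of the 10 libraries, as stacked bars. C4b is the largest part of all marrow bars (34.5 to 56.4%), and C3 of all P-SSC bars (54.2 to 67.2%), where C7 adds 3.67 to 12.1%.

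Because the genes differ in length, their order was also read from normalized counts per kb of exon. In BM-MSCs the order of these levels was C4b (7437 ± 1586 per kb, SD, n = 3), C1ra (5982 ± 1292), C3 (2512 ± 798), C1s1 (1790 ± 533), Cfb (110 ± 23.5) and C7 (2.06 ± 2.67). C4b and C1ra did not differ beyond their spread, nor did C3 and C1s1. In graft BM-MSCs the order was C4b (5005 ± 2302 per kb, SD, n = 4), C1ra (4401 ± 938), C1s1 (3586 ± 193), C3 (2211 ± 132) and Cfb (97.3 ± 59.8), with the first 3 within their spread of each other and C1s1 ahead of C3. In P-SSCs C3 (22872 ± 8589 per kb, SD, n = 3) led C1ra (6800 ± 2085), C4b (5284 ± 2600), C1s1 (4900 ± 1429) and C7 (4116 ± 1346), which were within their spread of each other, and Cfb (151 ± 50.4) came last. These spreads are between libraries, and some genes kept their order within each library. C1ra was above C4b and C1s1 in every P-SSC library. C4b was above C1ra in every BM-MSC library, and C1ra above C1s1 in every graft library, in some by little. The other pairs within their spread changed order between libraries.

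Of 55 genes listed for the whole complement system, 36 were in the table and 35 were tested. Graft BM-MSCs against P-SSCs gave 11 calls (7 higher, 4 lower, limma adjusted p under 0.05), where 18.1% of all genes tested were called in either direction, with a median log2 change of 0.77 beside -0.47 for all genes, or 0.47 with undetected genes set to their floor. Graft BM-MSCs against BM-MSCs gave 4 calls (1 higher, 3 lower), where 7.67% of all genes were called, with a median of -0.69 beside -0.53. P-SSCs against BM-MSCs gave 14 calls (4 higher, 10 lower), where 9.15% of all genes were called, with a median of -1.99 beside 0.00. With C3, C7 and C1s1, the only other gene of the list called higher in P-SSCs than in BM-MSCs was Colec10. The 4 calls between the marrow groups became 2 without graft BM-MSC 1, 2 without BM-MSC 1, 1 without BM-MSC 2+4 and 2 without BM-MSC 3.

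C6, which joins the attack complex just before C7, stood in the opposite order in P-SSCs and BM-MSCs. The genes lie 173.8 kb apart on chromosome 15 with 1 protein-coding gene, Mroh2b, between them. C6 had 43, 947, 2347 and 621 normalized counts in graft BM-MSCs 1 to 4, 4998, 6802 and 5746 in BM-MSCs 1, 2+4 and 3, and 1 read in all 3 P-SSC libraries. All graft libraries lay between the other groups, and graft BM-MSC 1 was more than 10-fold below the other graft libraries. The fitted log2 change was 8.56 ± 1.16 (SE) in graft BM-MSCs against P-SSCs (limma, adjusted p = 0.000571) and -12.11 ± 1.24 in P-SSCs against BM-MSCs (adjusted p = 0.000179). Graft BM-MSCs against BM-MSCs did not pass, at -3.55 ± 1.16 (SE, limma adjusted p = 0.0941, range over all alternatives 0.0396 to 0.843).

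**Figure D4:**
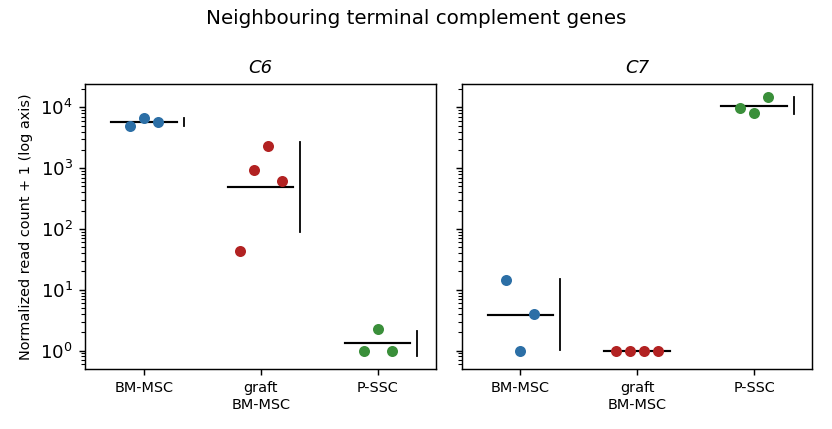
Normalized read count + 1 (vertical log axis) of the neighbouring genes C6 and C7 in every library of BM-MSCs (blue), graft BM-MSCs (red) and P-SSCs (green), with a horizontal line for the geometric mean and a vertical bar for ± 1 SD on the log2 scale. C6 is between 4998 and 6802 in BM-MSCs where C7 has at most 13 reads, and C7 is between 8154 and 15061 in P-SSCs where C6 has 1 read in all.

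Among the genes listed here as initiators of the lectin pathway, 6 were tested (Fcna, Fcnb, Mbl1, Colec10, Colec11 and Colec12). All 6 were called in P-SSCs against BM-MSCs, with 5 lower and 1 higher, where 9.15% of all genes were called in either direction. The listed gene Masp1 was in the expression table but was not tested. The calls of the ficolins Fcna and Fcnb were each lost when any of 6 libraries was left out (limma, adjusted p 0.0502 to 0.136 for Fcna without graft BM-MSC 1 or 4, BM-MSC 1 or 2+4, or P-SSC 1 or 4, and 0.0711 to 0.130 for Fcnb without any 1 steady-state library), and Fcna did not pass with DESeq2 (0.118) or edgeR (0.318, the highest of all alternatives). Mbl1, a mannose-binding lectin, had 266 to 1269 normalized counts in graft BM-MSCs, 439 to 916 in BM-MSCs and no read in P-SSCs. At the floor, its graft level was at least 185-fold higher than in P-SSCs, or at least 118-fold without graft BM-MSC 2 (log2 change 9.0 ± 0.85, SE, limma adjusted p = 7.55e-05). Here and below, the floor covers counting error only. The collectin Colec11 had 47.5 to 354 counts in graft BM-MSCs, 195 to 1118 in BM-MSCs and no read in P-SSCs. Its graft level was at least 65-fold higher than in P-SSCs (limma, adjusted p = 0.00101), or at least 50.7-fold without graft BM-MSC 3. Its relative Colec10 was seen only in P-SSCs, with 147, 14 and 133 counts in P-SSCs 1, 2+5 and 4. Its mean was at least 31.8-fold above BM-MSCs (limma, adjusted p = 0.00272) and at least 39.9-fold above graft BM-MSCs (0.00127). Without P-SSC 1 these bounds were 23.8-fold and 29.9-fold. With edgeR neither difference of Colec10 passed (adjusted p = 0.144 and 0.0558, the highest of all alternatives).

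Clusterin (Clu), a soluble inhibitor of the attack complex, had 14124 to 24959 normalized counts in graft BM-MSCs, 38435 to 71565 in BM-MSCs and 1501 to 3130 in P-SSCs. The 3 groups did not overlap, and graft BM-MSCs stood between the others, at 3.02 ± 0.31 (SE) above P-SSCs and -1.50 ± 0.31 against BM-MSCs on the log2 scale (limma, adjusted p = 0.000125 and 0.0188). The call against BM-MSCs was lost without BM-MSC 1 (limma, adjusted p = 0.0745) or BM-MSC 2+4 (0.0926) and with the GC correction (0.250), over a range of 0.00052 to 0.433 for all alternatives.

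Serping1, the inhibitor of C1r and C1s, was the most abundant per kb of the complement genes in the table, with 71720 to 150822 normalized counts in graft BM-MSCs, 175210 to 281808 in BM-MSCs and 105263 to 186552 in P-SSCs. It passed the test in none of the 3 comparisons (limma, adjusted p = 0.439 for graft BM-MSCs against P-SSCs, 0.0829 against BM-MSCs and 0.399 for P-SSCs against BM-MSCs). Cd55, a membrane protein that dissolves C3 convertases, had 9159, 8065 and 6276 counts in P-SSCs 1, 2+5 and 4, 352, 59.1 and 249 in BM-MSCs 1, 2+4 and 3, and 0, 0, 104 and 0 in graft BM-MSCs 1 to 4. It was lower in graft BM-MSCs than in P-SSCs (log2 change -11.24 ± 1.59, SE, limma adjusted p = 0.000739), while the other membrane inhibitor called there, Csmd1, was higher (5.78 ± 1.33, adjusted p = 0.0124, but 0.0551 in a fit of only these groups and up to 0.272 over all alternatives).

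The C1q chains and C2 complete the classical pathway, and macrophages are known as the main source of C1q. C1qa had 104 to 225 normalized counts in BM-MSCs, 0 to 76.5 in graft BM-MSCs and 0 to 15.3 in P-SSCs. C1qb had 237 to 662 in BM-MSCs, 0, 0, 0 and 2.59 in graft BM-MSCs 1 to 4, and 0, 228 and 0 in P-SSCs 1, 2+5 and 4. C1qc had 130 to 559 in BM-MSCs, 0 to 94.7 in graft BM-MSCs and 121 in P-SSC 2+5 alone among P-SSCs. Only C1qb was called, lower in graft BM-MSCs than in BM-MSCs (log2 change -8.16 ± 1.84, SE, limma adjusted p = 0.0259), a call lost without graft BM-MSC 1 (0.0520) or 3 (0.0505) and without any 1 BM-MSC library (0.0717 to 0.0958), with a highest value over all alternatives of 0.842.

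The sum of 11 macrophage markers, which include the C1q chains, was 5213 to 17532 normalized counts in BM-MSCs, 1728 to 14639 in graft BM-MSCs, where Adgre1 and Cd163 were at 0 in all libraries, and 753 to 3076 in P-SSCs, where Mrc1 and Ptprc were. The sums of the marrow groups overlapped, Lyz2 alone gave 12846 of the 14639 in graft BM-MSC 3, and of 10 of these markers tested only C1qb was called in any comparison (limma). The lectin Fcna was lower in graft BM-MSCs, with no read there and 40.4 to 478 counts in BM-MSCs (log2 change -7.58 ± 1.37, SE, limma adjusted p = 0.00966, but 0.0651 with edgeR and up to 0.679 over all alternatives). The part of macrophages in the values of C1q and Fcna was not tested. The convertase protease C2 lies 85 bases from Cfb and its counts may include reads of that neighbour, since the use of strand in counting is not given in the sources used here. It had 97.2, 1741, 2215 and 187 counts in graft BM-MSCs 1 to 4, 3899 to 5494 in BM-MSCs and 268 to 749 in P-SSCs, and passed in no comparison (limma, adjusted p = 0.825 for graft BM-MSCs against P-SSCs, 0.0886 against BM-MSCs and 0.0740 for P-SSCs against BM-MSCs). Factor D (Cfd), the protease that activates factor B and a known product of fat cells, was at 5366 and 2370 counts in graft BM-MSCs 3 and 4 and at 0 to 58.2 in all other libraries, and did not pass in any comparison (limma, adjusted p = 0.569, 0.322 and 0.905 in the same order).

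**Figure D5:**
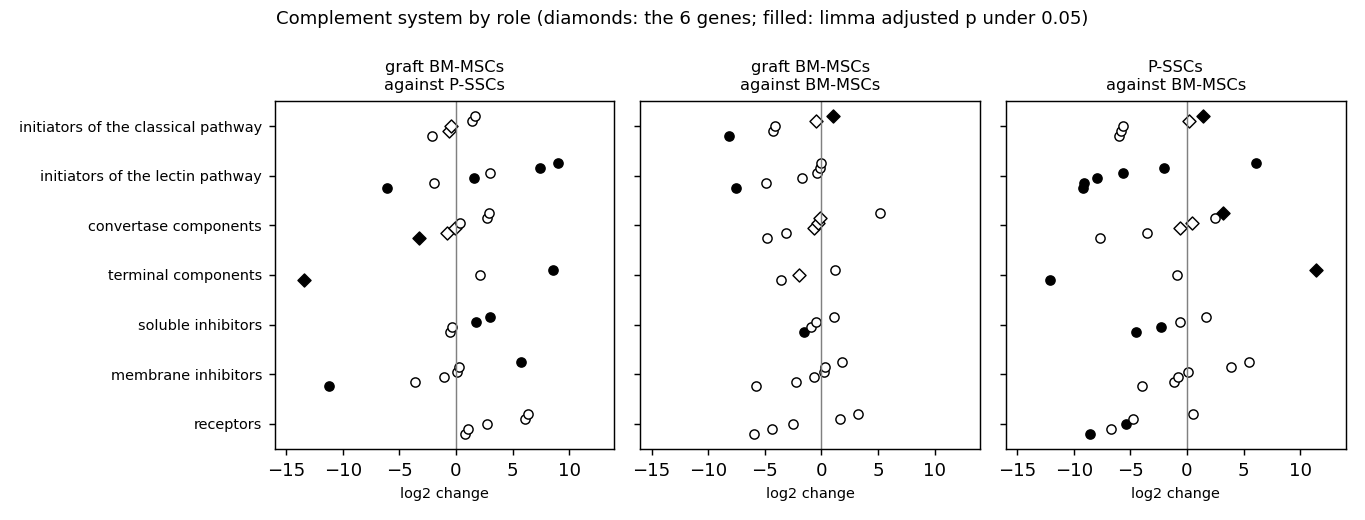
Fitted log2 change (horizontal axis) of the 35 complement genes tested, in rows by role, for the 3 comparisons, with diamonds for the 6 chosen genes, circles for the others and filled symbols for a limma adjusted p under 0.05. In the third panel the filled diamonds of C1s1 (1.45), C3 (3.15) and C7 (11.43) lie to the right, while 10 filled circles, with C6 at -12.11, lie to the left.

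Several markers of blood cells were called higher in marrow libraries than in P-SSCs, and their part in the values of the 6 genes was not tested. In other assays the study took CD51+CD200+ cells from within the CD45-Ter119-CD31- fraction, a gate meant to remove blood and endothelial cells, which the sources used here do not state for these libraries. The 7 neutrophil markers summed to 12.6 to 110 normalized counts in P-SSCs, 28950 to 85988 in BM-MSCs and 5624 to 106513 in graft BM-MSCs. Among them Mpo was at 6804 in BM-MSC 1 and at 0 in every other library. Of these, 4 were called higher in graft BM-MSCs than in P-SSCs and 5 lower in P-SSCs than in BM-MSCs (limma). The 6 red cell markers summed to 202 to 1407 in P-SSCs, 58705 to 205924 in BM-MSCs and 1483 to 27755 in graft BM-MSCs, with 3 called higher in the graft than in P-SSCs and all 6 lower in P-SSCs than in BM-MSCs. Between the marrow groups 0 neutrophil markers and 1 red cell marker, Hba-a1, were called. Of the 4 endothelial markers in the table, Tek had 6869, 4820 and 3254 counts in P-SSCs 1, 2+5 and 4 and at most 1.04 in the marrow libraries, while Cdh5 had at most 58.6 and Vwf at most 150 in any library, and Emcn was at 0 in P-SSCs and the graft. The 4 lymphocyte markers in the table summed to at most 276 in any library. The genes for the sorting markers CD51 (Itgav) and CD200 summed to 2573 to 3962 in graft BM-MSCs, 2058 to 3507 in BM-MSCs and 1781 to 2467 in P-SSCs.

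The genes whose pattern over the 10 libraries was most like that of each member were found by Pearson's r of log2(value + 1) among 9546 genes with a mean of at least 100. These values describe a pattern set largely by the 3 groups and carry no test. For C3 they were Tspo (r = 0.993), Ddah2 (0.991) and Krtdap (0.991), and for C7 Thbs4 (0.998), Nox4 (0.997) and Wnt2 (0.995). Tspo, for example, had mean normalized counts of 14836 ± 5788 in P-SSCs (SD, n = 3), 2284 ± 259 in BM-MSCs (n = 3) and 1906 ± 82.1 in the graft (n = 4), while Thbs4, which encodes a matrix protein of tendon, had 19919 ± 16299 in P-SSCs, 4.45 ± 4.72 in BM-MSCs and none in the graft. For C1s1 they were Tuba1a (r = 0.946), Sestd1 (0.925) and Arl15 (0.922), and for C1ra Snx17 (0.917), Chmp2a (0.904) and Cd81 (0.900). For C4b they were Lpin1 (r = 0.928), Slc15a2 (0.908) and the stromal transcription factor Ebf1 (0.886), and for Cfb Dab2 (0.910), Lix1l (0.893) and Htra2 (0.890). Between the members themselves r over the 10 libraries was 0.93 for C3 with C7, 0.74 for C1ra with Cfb, 0.21 for C1ra with C1s1 and -0.05 for C3 with C4b.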

How the data were processed

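RNA sequencing was performed on poly-T purified mRNA from sorted cells. Per the labels, the processing notes name FastQC 0.11.5, cutadapt 1.15, STAR 2.5, featureCounts (Subread 1.4.6) and DESeq2 1.26.0 with GRCm39, whereas the study's methods name GRCm38, and the table holds no coordinates. The deposited values are of the unit signal, a gene's reads scaled by the authors with a size factor for each library, and are called normalized read counts. Values were whole multiples of 1 step in each library, and division by it gave whole reads for 100% of values (tolerance 0.01). All 10 columns were assigned by name, and 0 were left unused. The 6 steady-state libraries were re-analysed by the authors from another series. Coordinates, lengths and GC content were looked up in GENCODE M21 (GRCm38) by Ensembl ID (15052 of 15078 found), and promoters from RefSeq on GRCm38.p6, which had entries for C3, C7, C1ra and C1s1 among the 6 genes, with 2 windows for C1s1 of which the first was used.

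Values were analysed as log2(value + 1), which understates changes of low genes. A minimum mean of 10 kept 13644 genes and removed 1434. limma 3.58.1 in R 4.3.3 (empirical Bayes with trend) was run on all 10 libraries with 1 coefficient for each group, and differences were tested (two-sided, Benjamini-Hochberg adjustment over all genes tested) with a threshold of 0.05. The labels give replicates as separate samples, and p-values measure the spread between these libraries. Floors of 3 reads cover counting error only. edgeR 4.0.16 and DESeq2 1.42.0 were run on the recovered reads as alternatives. Other alternatives were another pseudocount, filter, scaling or threshold, a GC correction (loess) and a covariate for libraries with GC-rich genes high or low. Further ones were a fit of only the groups compared, each library left out, and a replicate block. Only P-SSCs held libraries both high and low in GC-rich genes, so the covariate was set by P-SSC 4 against P-SSC 1 and 2+5. The fit within the libraries in which GC-rich genes stood low was added after seeing the data. The methods were tested on simulated data.

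The members and lists were chosen with earlier results of these data known. The genes named were the 6 members and, from the complement list, the 3 that rose and the 3 that fell most in each comparison among those called, every C1q chain, C2, Cfd and Serping1 (1 further gene is not reported here), with, for each member, the 3 genes most like it. Csmd1, Fcnb, Colec12 and Masp1 were named in addition, after their values were seen.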

Additional observations from a re-analysis of the deposited data

Results flagged for a closer look

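In each complement gene of the list, the 4 graft libraries were searched for 1 library far from the other 3, by the gap to the nearest library over the whole range. Of 35 such groups of values, 7 held one, where chance gives about 1 in 20, although this rate does not apply to 4 of them (Cd55, Itgam, C1qb and Susd4), in which the other 3 libraries were at 0. None of the 7 was C1ra, C1s1, C4b, C3, Cfb or C7. Graft BM-MSC 3 stood apart with 104 normalized counts of Cd55, 18.1 of Itgam and 773 of Itgb2, the last 2 being chains of complement receptor 3. Graft BM-MSC 4 stood apart with 1157 counts of the attack complex inhibitor Cd59a, 2.59 of C1qb and 0.863 of Susd4, the last 2 being at most 3 reads. Graft BM-MSC 1 stood apart with 1082 counts of C1qbp.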

How the results depend on the processing

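The calls of C3 and C7 in graft BM-MSCs against P-SSCs kept their direction and their side of the threshold under all alternatives run, and those of C3, C7 and C1s1 in P-SSCs against BM-MSCs under all but the fits with the replicate block. Each group held 3 or 4 libraries, and 16 reads in all are behind C7 in BM-MSCs.

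In graft BM-MSCs against P-SSCs, 2464 genes were called, beside 1531 with edgeR, 269 with the replicate block, 323 with the block and GC correction, 1081 with the covariate, 1332 at an adjusted p under 0.01, and 1583 to 3005 with 1 library left out, lowest without P-SSC 1. In graft BM-MSCs against BM-MSCs the count was 1046, beside 316 with edgeR, 1947 with DESeq2, 3 with the block and 3 with the block and GC correction, 40 with the covariate, 305 at 0.01, and 476 to 1584 with 1 library left out (540, 476 and 477 without BM-MSC 1, 2+4 and 3, and 1584 without P-SSC 4). In P-SSCs against BM-MSCs it was 1248, beside 619 with edgeR, 54 with the block, 66 with the block and GC correction, 2040 within the libraries in which GC-rich genes stood low (added after seeing the data), 794 at 0.01, and 917 to 1495 with 1 library left out. Of the 6 genes, the 1 called in graft BM-MSCs against BM-MSCs became 0 with median centring, edgeR, the block, the block and GC correction, the covariate and at 0.01, became 2 with DESeq2, and ranged from 0 to 1 with 1 library left out. The 3 called in P-SSCs against BM-MSCs became 0 with the replicate block and 0 with the block and GC correction (limma, adjusted p 0.0862 for C3, 0.130 for C7 and 0.183 for C1s1 with the block). Libraries of the same number correlated in their deviations from group means by -0.0191 to 0.0295. Pooled libraries that share 1 number with another correlated by -0.0670 to 0.0811, the highest for BM-MSC 2+4 with P-SSC 2+5. Not every library correlated best with its own number, so the numbers were not taken as pairs. With so few libraries this check cannot exclude shared mice. In the replicate block each number as written was its own level, and 2, 2+4 and 2+5 were each held by 1 library. Such a library adds nothing to the differences between groups. The fits with the block thus rested on fewer libraries than the main fit, and their lost calls cannot be told apart from lower power. What else contributed to these losses, and the cause of the other changes, was not tested. Over all alternatives the complement list gave 5 to 17, 0 to 7 and 0 to 17 calls in the 3 comparisons.

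Among the 6 genes, signs changed only for genes that were not called. For C4b, graft BM-MSCs against P-SSCs gave 0.56 with quantile normalization, 0.030 with edgeR, 0.67 with the GC correction, 0.22 with the block and GC correction, 0.62 with the covariate and -0.40 to 0.31 with 1 library left out. For C1s1 it gave 0.12, 0.16, 0.13 and 0.057 with quantile normalization, the GC correction, the block and GC correction and the covariate, and for C1ra 0.024 with the GC correction. Against BM-MSCs, C3 gave 0.12 with quantile normalization, 0.23 with the block, 0.59 with the GC correction, 0.81 with both, 0.95 with the covariate and -0.33 to 0.10 with 1 library left out, and C7 gave 0.27 with quantile normalization. Cfb gave 0.23 with the block, 0.38 with the GC correction, 0.82 with both and 0.23 with the covariate. With the GC correction, the block and GC correction and the covariate, C4b gave 0.034, 0.40 and 0.37 and C1ra 0.18, 0.28 and 0.39. In P-SSCs against BM-MSCs, C1ra gave -0.0045 with quantile normalization and -0.030 to 0.43 with 1 library left out, and C4b gave 0.20 with the block and 0.18 with the block and GC correction.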
